A study of Marchantia polymorpha with 9 samples.

Results

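MpLOX4 (Mp5g21680) and MpLOX16 (Mp2g16000) are 2 of the 16 lipoxygenase genes named in the liverwort Marchantia polymorpha, and 2 of the 20574 genes in the tables. They were chosen by name, because both had been seen to be lower in the mean of the MpB-GATA1 mutants than in the wild type in these libraries. Their differences between the groups are therefore given as a description, with no test. RNA sequencing libraries were made from entire thallus plants, 3 weeks old, of the mutant lines Mpb-gata1-1 and, carrying another allele, Mpb-gata1-2, and of the wild type BoGa, with 3 libraries in each group and 3 plants pooled in each library. All plants grew without treatment on Gamborg's B5 medium at 22 °C, with 16 h of light a day (40 µmol m-2 s-1) followed by 8 h of dark. B-GATA proteins are transcription factors with a zinc finger. The labels do not say what lesion each allele carries. Each allele is 1 line, so its mutation and its genetic background cannot be told apart, and p-values measure the spread between pools of plants.

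Lipoxygenases add oxygen to polyunsaturated fatty acids and so make fatty acid hydroperoxides. Allene oxide synthases and later enzymes turn a part of these into oxylipin hormones. In flowering plants the product sensed by the receptor COI1 is a jasmonic acid conjugate, whereas in Marchantia MpCOI1 senses the precursor dinor-OPDA. Liverworts also hold longer polyunsaturated fatty acids, such as arachidonic acid, which some lipoxygenases can use. In land plants the pathway is best known for responses to wounding and herbivores.

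The libraries held 24823337 to 44133919 gene reads, of which 98.2 to 98.3% were unique to a gene, and 14667 genes had enough reads to be tested. MpGATA4 (Mp7g03490), taken here to be MpB-GATA1 from knowledge of the study, averaged 252 ± 5.07 CPM (read counts scaled to library size, with TMM factors) in Mpb-gata1-1, 283 ± 3.64 CPM in Mpb-gata1-2 and 151 ± 3.37 CPM in BoGa (SD, n = 3 each), so its RNA level does not show a loss of the gene. The groups also differed in the V level, the summary level of 22 genes of the V chromosome of male plants. Relative to the mean of Mpb-gata1-2, this level lay between 0.0174 and 0.0254 in Mpb-gata1-1, between 0.947 and 1.04 in Mpb-gata1-2, and at 0.360, 0.516 and 0.663 in BoGa replicates 1 to 3. Of 14 marker genes, the 5 of oil body cells, the 3 of gemma cups and the 2 of rhizoids had reads in all 3 groups, with summed levels of 18.8 to 21.9, 42.8 to 45.0 and 16.7 to 19.7 TPM (the authors' level per gene length) in Mpb-gata1-1, 19.5 to 20.8, 50.2 to 53.0 and 15.4 to 17.6 TPM in Mpb-gata1-2, and 15.5 to 19.4, 30.3 to 37.3 and 13.1 to 13.9 TPM in BoGa. The genes of gemma cups did not move together, so their sum cannot show a change in the amount of gemma cups. On the log2 scale, MpGCAM1 differed from BoGa by 1.56 ± 0.19 (SE) in Mpb-gata1-1 and by 2.31 ± 0.18 in Mpb-gata1-2. MpKAR differed by 0.29 ± 0.126 and 0.397 ± 0.126 in the same order, and MpCLE2 by -0.284 ± 0.068 and -0.397 ± 0.069. The 4 genes of sexual branches summed to 1.73 to 1.84 TPM in Mpb-gata1-1, 7.35 to 9.43 TPM in Mpb-gata1-2 and 4.06 to 7.35 TPM in BoGa, and 1, 2 and 1 of them had no reads in the 3 groups. The change in this sum came from MpR2R3-MYB1, which averaged 0.320 TPM in Mpb-gata1-1, 6.74 TPM in Mpb-gata1-2 and 4.12 TPM in BoGa. MpDUO1 averaged 1.43, 1.40 and 1.13 TPM in the same order. The part of the V level and of these cells in the results on the lipoxygenase genes was not tested, apart from the values given below with the V level as a covariate. In such whole-plant RNA, fewer cells that express a gene and less RNA per cell cannot be told apart.

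MpLOX4 was almost silent in Mpb-gata1-1, kept an intermediate level in Mpb-gata1-2 and was one of the most abundant lipoxygenase RNAs in BoGa. It lies on the plus strand of chromosome 5, from 23324570 to 23330097 in the deposited annotation, whose build is not given in the sources used here, and all of its reads were unique. It had 30, 38 and 30 reads in the Mpb-gata1-1 libraries, 625, 796 and 650 reads in the Mpb-gata1-2 libraries and 2027, 1685 and 2549 reads in the BoGa libraries. Scaled for library size, the Mpb-gata1-1 libraries had 1.20, 1.11 and 0.670 CPM, the Mpb-gata1-2 libraries 23.4, 23.998 and 16.5 CPM, and the BoGa libraries 60.5, 52.9 and 69.7 CPM. The 3 groups did not overlap, and all 6 mutant libraries lay below all 3 BoGa libraries. Mean levels were 0.993 ± 0.283 CPM in Mpb-gata1-1, 21.3 ± 4.16 CPM in Mpb-gata1-2 and 61.1 ± 8.40 CPM in BoGa (SD, n = 3 each). The mutant means were thus 1.63% and 34.9% of the BoGa mean. The fitted log2 difference from BoGa was -6.00 ± 0.23 (SE) in Mpb-gata1-1 and -1.52 ± 0.16 in Mpb-gata1-2, with the same BoGa libraries in both comparisons.

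The alleles themselves stood further apart for MpLOX4 than Mpb-gata1-2 stood from BoGa. Its mean was 21.5-fold higher in Mpb-gata1-2 than in Mpb-gata1-1, a log2 difference of 4.47 ± 0.23 (SE), and the closest libraries of these groups were still 13.8-fold apart. The closest libraries of Mpb-gata1-1 and BoGa were 44.1-fold apart, and those of Mpb-gata1-2 and BoGa 2.20-fold. By log2 difference MpLOX4 ranked 33 from the lowest of 14667 tested genes for Mpb-gata1-1 minus BoGa, 426 from the lowest for Mpb-gata1-2 minus BoGa, and 60 from the highest for Mpb-gata1-2 minus Mpb-gata1-1. The 98 reads summed over Mpb-gata1-1 have a 95% Poisson interval of 79.6 to 119, which covers counting error only.

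MpLOX16 was low in both mutants, and lowest in Mpb-gata1-2, the allele in which MpLOX4 was the less reduced. It lies on the minus strand of chromosome 2, from 16961685 to 16967203, and 97.4% of its reads were unique. It had 102, 150 and 241 reads in the Mpb-gata1-1 libraries, 72, 99 and 121 reads in the Mpb-gata1-2 libraries and 683, 660 and 1296 reads in the BoGa libraries. The Mpb-gata1-1 libraries had 4.08, 4.38 and 5.38 CPM, the Mpb-gata1-2 libraries 2.70, 2.98 and 3.08 CPM, and the BoGa libraries 20.4, 20.7 and 35.4 CPM. Again no library of a group fell within the range of another group, but BoGa replicate 3 stood well above the other BoGa libraries.

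For MpLOX16 the means were 4.61 ± 0.684 CPM in Mpb-gata1-1, 2.92 ± 0.196 CPM in Mpb-gata1-2 and 25.5 ± 8.59 CPM in BoGa (SD, n = 3 each). The BoGa mean was 5.53-fold the Mpb-gata1-1 mean and 8.74-fold the Mpb-gata1-2 mean. The fitted log2 difference from BoGa was -2.45 ± 0.22 (SE) in Mpb-gata1-1 and -3.12 ± 0.23 in Mpb-gata1-2, again against shared BoGa libraries. Without BoGa replicate 3 these differences were -2.14 and -2.82. Between the alleles the log2 difference, Mpb-gata1-2 minus Mpb-gata1-1, was -0.67 ± 0.24, and the closest libraries of the mutants differed 1.33-fold. MpLOX16 ranked 200 from the lowest for Mpb-gata1-1 minus BoGa, 114 for Mpb-gata1-2 minus BoGa and 1121 for Mpb-gata1-2 minus Mpb-gata1-1.

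The spread between libraries of a group was of a different kind in the 2 genes. For MpLOX4 the coefficient of variation was 28.5% in Mpb-gata1-1, 19.5% in Mpb-gata1-2 and 13.8% in BoGa, largest where reads were fewest. For MpLOX16 it was 14.8% in Mpb-gata1-1, 6.72% in Mpb-gata1-2 and 33.6% in BoGa, largest where reads were most numerous, with the highest BoGa library 1.74-fold the lowest. With the V level as a covariate, MpLOX4 differed by -5.75 ± 0.46 (SE) in Mpb-gata1-1 minus BoGa and by -1.77 ± 0.41 in Mpb-gata1-2 minus BoGa. In the same model MpLOX16 differed by -1.20 ± 0.37 in Mpb-gata1-1 minus BoGa and by -4.27 ± 0.35 in Mpb-gata1-2 minus BoGa. The errors of both genes were wider than without the covariate. The V levels of the groups do not overlap, so the group and the V level are told apart here only through differences between libraries of a group. These were largest in BoGa (0.360, 0.516 and 0.663), where replicate 3 had both the highest V level and the most MpLOX16 RNA. The model thus extends a trend drawn largely from the BoGa libraries to the mutants, and it cannot show whether the differences persist apart from the V level.

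**Figure D1:**
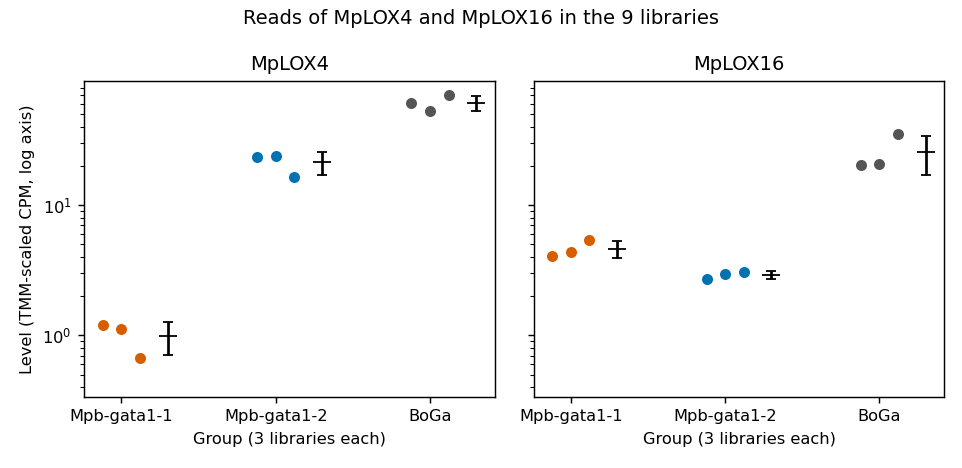
TMM-scaled CPM (log axis) of MpLOX4 on the left and MpLOX16 on the right in each library, with points for the libraries of Mpb-gata1-1, Mpb-gata1-2 and BoGa, horizontal bars for group means and whiskers for the SD (n = 3). MpLOX4 is lowest in Mpb-gata1-1 (0.993 CPM) and MpLOX16 in Mpb-gata1-2 (2.92 CPM), and the groups of libraries do not overlap for either gene.

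Levels of different genes were compared in TPM, in which the authors' length is that of the gene region, introns included. The regions of MpLOX4 (5528 bp) and MpLOX16 (5519 bp) are nearly equal in size. MpLOX4 stood at 0.668, 0.650 and 0.385 TPM in Mpb-gata1-1, 13.7, 13.5 and 9.39 TPM in Mpb-gata1-2, and 33.3, 28.1 and 36.8 TPM in BoGa. MpLOX16 stood at 2.28, 2.57 and 3.09 TPM in Mpb-gata1-1, 1.58, 1.68 and 1.75 TPM in Mpb-gata1-2, and 11.2, 11.0 and 18.7 TPM in BoGa. The order of the 2 genes changed with the group. MpLOX4 had 0.124 to 0.294 times the TPM of MpLOX16 in the Mpb-gata1-1 libraries, 5.36 to 8.67 times its TPM in the Mpb-gata1-2 libraries and 1.96 to 2.96 times its TPM in the BoGa libraries.

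Among the 16 lipoxygenase genes, MpLOX4 ranked 13 or 14 by TPM in the Mpb-gata1-1 libraries, 6 to 8 in the Mpb-gata1-2 libraries and 3 or 4 in the BoGa libraries. MpLOX16 ranked 12 in each Mpb-gata1-1 library, 13 in each Mpb-gata1-2 library and 5 to 9 in the BoGa libraries. MpLOX4 made up 0.169 ± 0.0492% of the summed lipoxygenase TPM in Mpb-gata1-1, 2.65 ± 0.465% in Mpb-gata1-2 and 8.29 ± 0.512% in BoGa (SD, n = 3 each). The share of MpLOX16 was 0.783 ± 0.109% in Mpb-gata1-1, 0.365 ± 0.0269% in Mpb-gata1-2 and 3.42 ± 0.754% in BoGa. The summed TPM of the family was 337 ± 8.61 in Mpb-gata1-1, 458 ± 13.4 in Mpb-gata1-2 and 394 ± 38.1 in BoGa. This sum includes the 2 genes themselves, and it was lower in Mpb-gata1-1 (327 to 343 TPM) than in BoGa (363 to 437 TPM). In Mpb-gata1-2 it was higher than in BoGa, at 443 to 470 TPM. The 14 other genes summed to 334 ± 8.38 TPM in Mpb-gata1-1, 444 ± 11.3 TPM in Mpb-gata1-2 and 348 ± 29.8 TPM in BoGa, and MpLOX14 and MpLOX2 held the most of it. Without the 2 genes, the range in Mpb-gata1-1 (325 to 340 TPM) lay within that in BoGa (324 to 381 TPM). The range in Mpb-gata1-2 (432 to 455 TPM) still lay above that in BoGa.

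**Figure D2:**
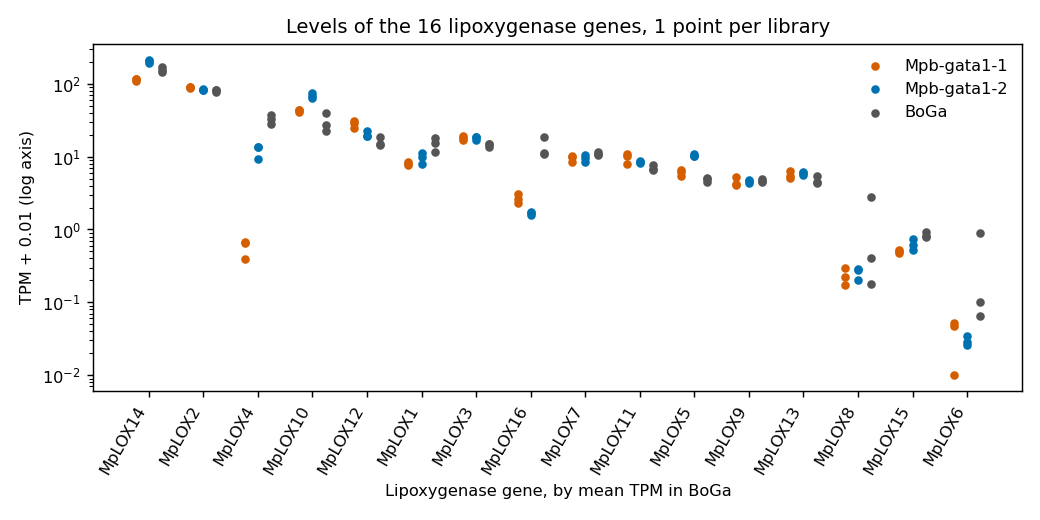
TPM plus 0.01 (log axis) of the 16 lipoxygenase genes, ordered by mean TPM in BoGa, with 1 point per library in the colours of Mpb-gata1-1, Mpb-gata1-2 and BoGa. MpLOX4 ranks 3 or 4 in BoGa and 13 or 14 in Mpb-gata1-1, whereas MpLOX2 keeps nearly the same level in all groups.

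The other lipoxygenase genes were tested with edgeR's quasi-likelihood test and Benjamini-Hochberg adjustment over all 14667 genes, with 0.05 as the threshold for passing. Of the 14, 13 had enough reads to be tested, and MpLOX6 did not. In Mpb-gata1-1 minus BoGa 3 rose and 4 fell, against a background of 46.0% of all tested genes that passed (23.0% higher and 23.0% lower). In Mpb-gata1-2 minus BoGa 4 rose and 3 fell, against a background of 46.4% (21.7% higher and 24.7% lower), and in Mpb-gata1-2 minus Mpb-gata1-1 3 rose and 1 fell, against 30.9% (14.9% higher and 16.0% lower). These shares lie near the background, and the median log2 differences of the 13 genes were 0.05, 0.18 and 0.08, beside 0.00, -0.02 and 0.00 over all tested genes. With the V level as a covariate 2, 3 and 1 of the other lipoxygenase genes passed in the 3 comparisons, where 12.4%, 7.87% and 1.92% of all tested genes did. These were MpLOX8, whose direction turned (5.13), and MpLOX10 in Mpb-gata1-1 minus BoGa, MpLOX1, MpLOX5 and MpLOX8 in Mpb-gata1-2 minus BoGa, and MpLOX8 between the alleles, so the other calls given below did not pass in that model.

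MpLOX14 (Mp8g12930), the lipoxygenase gene with the highest TPM in every library, moved in opposite directions in the alleles. It stood at 108, 115 and 114 TPM in Mpb-gata1-1, 213, 206 and 194 TPM in Mpb-gata1-2, and 156, 144 and 172 TPM in BoGa, so the groups did not overlap. It fell by 0.58 on the log2 scale in Mpb-gata1-1 against BoGa (edgeR's adjusted p = 0.000102) and rose by 0.28 in Mpb-gata1-2 against BoGa (adjusted p = 0.00715). The difference between the alleles was 0.86 ± 0.07 (SE; edgeR's adjusted p = 7.9e-06). Like MpLOX4, it was lower in Mpb-gata1-1 than in Mpb-gata1-2, but in Mpb-gata1-2 it lay above BoGa and MpLOX4 below it. With the V level as a covariate MpLOX14 passed in none of the 3 comparisons (edgeR's adjusted p = 0.297, 0.964 and 0.67).

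MpLOX2 (Mp2g23380), the next in TPM, stood at 87.6, 90.0 and 89.0 TPM in Mpb-gata1-1, 83.3, 81.0 and 85.0 TPM in Mpb-gata1-2 and 83.1, 76.1 and 82.4 TPM in BoGa. Its log2 differences of 0.05 ± 0.05 (SE) and -0.05 ± 0.05 from BoGa did not pass in edgeR (adjusted p = 0.467 for Mpb-gata1-1 and 0.476 for Mpb-gata1-2). MpLOX10 (Mp8g09050) stood at 44.3, 41.2 and 43.5 TPM in Mpb-gata1-1, 63.7, 74.3 and 68.7 TPM in Mpb-gata1-2, and 22.7, 26.8 and 40.1 TPM in BoGa, where replicate 3 was again the highest. It rose by 1.11 in Mpb-gata1-2 against BoGa and by 0.68 against Mpb-gata1-1 (edgeR's adjusted p = 0.000814 and 0.0162), although the second difference did not pass without Mpb-gata1-2 replicate 2 (adjusted p = 0.0558). In the model with the V level the difference of MpLOX10 in Mpb-gata1-2 against BoGa was 0.0045 (edgeR's adjusted p = 0.996). Its difference of 0.43 in Mpb-gata1-1 against BoGa did not pass (adjusted p = 0.0798), but without BoGa replicate 3 it was 0.71 and passed (edgeR's adjusted p = 0.000323).

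MpLOX1 (Mp2g00660) was, beside the 2 genes described, the most abundant lipoxygenase gene that fell in both alleles. It stood at 8.34, 7.95 and 7.74 TPM in Mpb-gata1-1, 7.94, 11.1 and 10.02 TPM in Mpb-gata1-2, and 11.5, 15.2 and 18.0 TPM in BoGa. It fell by 1.00 in Mpb-gata1-1 and by 0.71 in Mpb-gata1-2 on the log2 scale (edgeR's adjusted p = 0.00121 and 0.00701), both smaller than any difference of MpLOX4 or MpLOX16 from BoGa. When the V level was included, MpLOX1 differed by -0.13 in Mpb-gata1-1 (edgeR's adjusted p = 0.878) and by -1.51 in Mpb-gata1-2 (adjusted p = 0.0453). MpLOX3 (Mp3g06610) rose slightly in both, by 0.21 in Mpb-gata1-1 and 0.24 in Mpb-gata1-2 (adjusted p = 0.0212 and 0.0112 in edgeR). The rise in Mpb-gata1-1 was lost when BoGa replicate 1 (edgeR's adjusted p = 0.0507) or Mpb-gata1-1 replicate 3 (0.0926) was left out.

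Further rises passed against BoGa in 1 of the alleles. MpLOX12 (Mp8g01650) rose by 0.72 in Mpb-gata1-1 (edgeR's adjusted p = 0.000904), where it stood at 24.3, 31.0 and 28.6 TPM against 14.8, 14.4 and 18.4 TPM in BoGa, and MpLOX11 (Mp8g08690) rose by 0.37 there (adjusted p = 0.0115). In Mpb-gata1-2 MpLOX12 differed from BoGa by 0.27 and did not pass (edgeR's adjusted p = 0.0918). Without BoGa replicate 3 that difference was 0.40 and passed (edgeR's adjusted p = 0.00874). MpLOX11 differed by 0.18 in Mpb-gata1-2 (edgeR's adjusted p = 0.165), and its difference between the alleles did not pass (-0.19, adjusted p = 0.174). MpLOX5 (Mp1g21930) rose by 1.01 in Mpb-gata1-2 (edgeR's adjusted p = 1.29e-05), with 10.1, 10.2 and 10.8 TPM against 4.96, 5.004 and 4.54 TPM in BoGa. In Mpb-gata1-1 MpLOX5 differed by 0.21 and did not pass (edgeR's adjusted p = 0.0847), although it passed in 3 of 21 alternatives. The difference between the alleles, Mpb-gata1-2 minus Mpb-gata1-1, passed for MpLOX5 (0.80, adjusted p = 8.19e-05 in edgeR) and for MpLOX12 (-0.45, adjusted p = 0.0168), but that of MpLOX12 did not pass without Mpb-gata1-1 replicate 2 or 3 or Mpb-gata1-2 replicate 1 or 3 (edgeR's adjusted p = 0.0553, 0.0513, 0.0633 and 0.0707). MpLOX7 (Mp2g12250) differed by -0.29 in Mpb-gata1-2 with an adjusted p of 0.049 in edgeR, which became 0.0556 in DESeq2. This call was lost in 16 of 21 alternatives. MpLOX7 was much the same in Mpb-gata1-1 (-0.28, edgeR's adjusted p = 0.0539), with -0.0067 between the alleles.

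The least abundant members of the family, named after their values were seen, rest on few reads or on 1 library. MpLOX15 (Mp2g23370), the direct neighbour of MpLOX2, fell by 0.86 in Mpb-gata1-1 (edgeR's adjusted p = 0.00608) and stood under 1 TPM in every library. In Mpb-gata1-2 it fell by 0.53 (edgeR's adjusted p = 0.0494, and 0.139 in DESeq2), a call lost in 17 of 20 alternatives. MpLOX8 (Mp2g12220) stood at 0.160 to 0.290 TPM in Mpb-gata1-1, 0.193 to 0.278 TPM in Mpb-gata1-2, and 0.169, 0.394 and 2.75 TPM in BoGa. Its log2 difference of -2.40 in Mpb-gata1-1 (edgeR's adjusted p = 0.0462) was -0.38 without BoGa replicate 3 (adjusted p = 0.482). MpLOX6 (Mp2g12180) was likewise highest in BoGa replicate 3, with 0.896 TPM there, 0.0546 and 0.0924 TPM in the other BoGa libraries and at most 0.0426 TPM in the mutants. BoGa replicate 3 was thus the highest BoGa library for MpLOX16, MpLOX10, MpLOX8 and MpLOX6, as it was in TPM for MpLOX4, MpLOX14, MpLOX12, MpLOX1 and MpLOX13. By read counts over all genes it also differed most from the other BoGa libraries (chi-square per degree of freedom of 43.6 from replicate 1). MpLOX9 and MpLOX13 passed in none of the 3 comparisons, although without BoGa replicate 3 MpLOX13 passed in both mutants (edgeR's adjusted p = 0.0495 in Mpb-gata1-1 and 0.017 in Mpb-gata1-2).

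**Figure D3:**
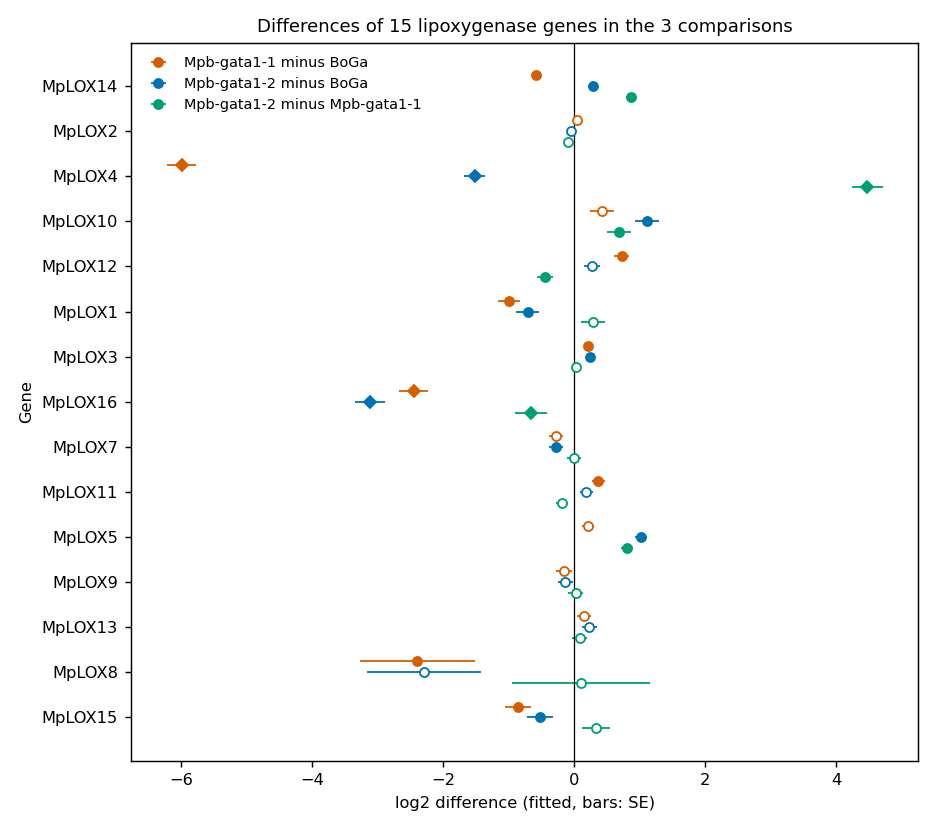
Fitted log2 differences with SE of the 15 lipoxygenase genes with enough reads, for Mpb-gata1-1 minus BoGa (orange), Mpb-gata1-2 minus BoGa (blue) and Mpb-gata1-2 minus Mpb-gata1-1 (green). Diamonds are MpLOX4 and MpLOX16, which were not tested, filled circles passed edgeR's test and open circles did not; MpLOX4 spans -6.00 to 4.47, and MpLOX14 lies on opposite sides of 0 in the alleles.

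The genes beside MpLOX4 on chromosome 5 differed in pattern. Mp5g21690, 12.9 kb after it, was higher in both mutants, with 8.15 ± 3.56 CPM in Mpb-gata1-1, 14.1 ± 2.43 CPM in Mpb-gata1-2 and 0.728 ± 0.355 CPM in BoGa (SD, n = 3 each). It rose by 3.45 in Mpb-gata1-1 and 4.26 in Mpb-gata1-2 on the log2 scale (edgeR's adjusted p = 8.54e-05 and 1.72e-05), the direction opposite to that of MpLOX4, although with the V level as a covariate the rise in Mpb-gata1-1 was 2.43 and did not pass (adjusted p = 0.282). Mp5g21670, the nearest gene at 5.49 kb before MpLOX4, did not pass (edgeR's adjusted p = 0.104 in Mpb-gata1-1 and 0.166 in Mpb-gata1-2). Mp5g21660, 13.9 kb before, fell by 1.30 in Mpb-gata1-1 (adjusted p = 0.011 in edgeR) and did not pass in Mpb-gata1-2 (-0.31, adjusted p = 0.456). Its means of 1.36 CPM in Mpb-gata1-1, 2.77 CPM in Mpb-gata1-2 and 3.43 CPM in BoGa stood in the same order as those of MpLOX4. Its allele difference of 0.99, Mpb-gata1-2 minus Mpb-gata1-1, did not pass in edgeR (adjusted p = 0.0536) but passed in DESeq2 (adjusted p = 0.0181). MpAPC10 at 20.01 kb did not pass against BoGa (edgeR's adjusted p = 0.166 in Mpb-gata1-1 and 0.297 in Mpb-gata1-2). Its allele difference of 0.34, Mpb-gata1-2 minus Mpb-gata1-1, passed (edgeR's adjusted p = 0.0366), but this call was lost in 8 of 21 alternatives. The other 2 neighbours, MpPPO26 and Mp5g21710, had too few reads.

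MpLOX16 lies in a sparser stretch of chromosome 2. The 3 genes before it, at 39.4 to 65.3 kb, were the pathogenesis-related genes MpPR1g and MpPR1f and the unnamed Mp2g15980, and none had enough reads to be tested. Mp2g16010, 121 kb after it, stood at 7.36 CPM in Mpb-gata1-1, 7.29 CPM in Mpb-gata1-2 and 7.50 CPM in BoGa and did not pass (edgeR's adjusted p = 0.846 and 0.768). MpCYP829-like2 (Mp2g16020), a cytochrome P450 gene 135 kb after it, was low in both mutants like MpLOX16, with 0.134 CPM in Mpb-gata1-1, 0.151 CPM in Mpb-gata1-2 and 1.11 CPM in BoGa. It fell by 2.86 and 2.85 on the log2 scale (edgeR's adjusted p = 0.000213 and 0.000226), but in Mpb-gata1-2 its fall did not pass in the model with the V level (adjusted p = 0.171).

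**Figure D4:**
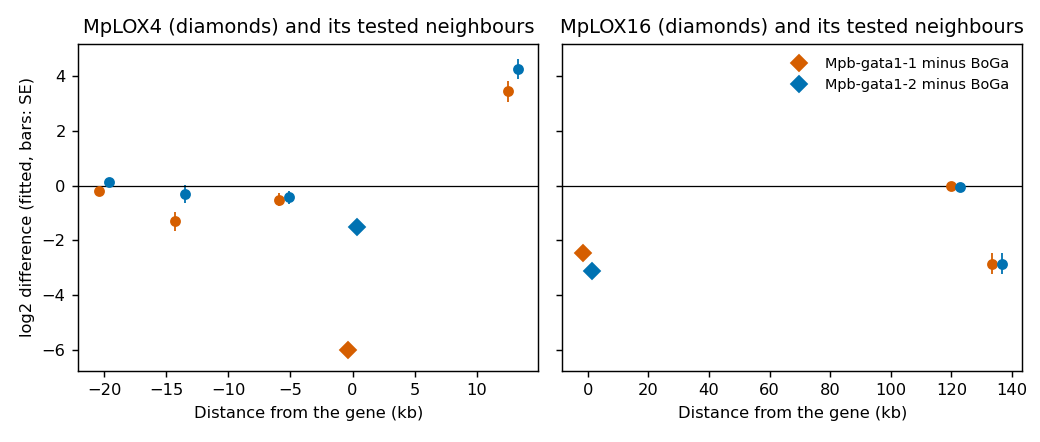
Fitted log2 differences from BoGa with SE, for Mpb-gata1-1 and Mpb-gata1-2, of MpLOX4 (left) and MpLOX16 (right) at 0 kb and of their tested neighbours by distance in kb, with paired points shifted slightly apart. The neighbour 12.9 kb after MpLOX4 is higher in both mutants (3.45 and 4.26), while MpLOX4 is lower in both.

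Genes of the most similar pattern were sought among 12151 genes by the root mean square difference of log2 CPM over the 9 libraries, after subtracting the mean of each gene. The 2 lipoxygenase genes stood at 2.13 from each other by this measure. MpLOX16 ranked 314 in closeness to MpLOX4, whereas MpLOX4 ranked 11973 in closeness to MpLOX16. The measure is not scaled for the size of a gene's differences, so distances and ranks depend on that size. Among named genes, MpR2R3-MYB1 (Mp1g17210, also called MpFGMYB), a regulator of female sexual development, lay nearest to MpLOX4 (1.15), with 0.732 CPM in Mpb-gata1-1, 15.5 CPM in Mpb-gata1-2 and 10.1 CPM in BoGa. It is also 1 of the 4 sexual branch markers given above. An antisense RNA is known at that locus in Marchantia, and the use of strand in counting is not given in the sources used here, so its reads and those of the antisense RNA cannot be told apart. MpCupin35 (1.15) and MpDFR-like16 (1.15) followed. MpCupin35 averaged 0.495 CPM in Mpb-gata1-1, 11.8 CPM in Mpb-gata1-2 and 6.68 CPM in BoGa, and MpDFR-like16 averaged 9.78 CPM in Mpb-gata1-1, 53.7 CPM in Mpb-gata1-2 and 98.0 CPM in BoGa. MpRLK-Pelle_WAK_LRK10L-12 (1.34) and MpCYP821-like (1.37) came next, and the unnamed Mp5g02100 was nearer than all of them (0.58), with 0.219 CPM in Mpb-gata1-1, 4.54 CPM in Mpb-gata1-2 and 7.90 CPM in BoGa.

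The nearest genes of MpLOX16 lay at smaller distances than those of MpLOX4, whose larger differences by themselves widen the unscaled measure. The named genes nearest to MpLOX16 were MpDIR39 (0.52), of the dirigent family, the cytochrome P450 genes MpCYP829-like10 (0.53) and MpCYP829-like7 (0.55), the glycoside hydrolase gene MpGH18.1 (0.58) and MpKOL3 (0.59), and the unnamed Mp4g00650 was the nearest (0.39). MpKOL3 averaged 14.7 CPM in Mpb-gata1-1, 11.7 CPM in Mpb-gata1-2 and 49.9 CPM in BoGa. Mp4g00650 averaged 14.4 CPM in Mpb-gata1-1, 13.6 CPM in Mpb-gata1-2 and 63.4 CPM in BoGa. MpDIR39, MpCYP829-like10 and MpCYP829-like7 are less certain, since 70.6%, 88.9% and 7.46% of their reads were unique, as are MpCupin35 (86.6%) and MpRLK-Pelle_WAK_LRK10L-12 (79.6%) among the companions of MpLOX4.

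Genes before and after the lipoxygenase step were examined to set the 2 genes in their pathway. All 23 genes listed for it by symbol had enough reads. In Mpb-gata1-1 minus BoGa 7 rose and 6 fell (background 46.0%), in Mpb-gata1-2 minus BoGa 6 rose and 5 fell (46.4%), and in Mpb-gata1-2 minus Mpb-gata1-1 4 rose and 8 fell (30.9%). The medians were 0.09, -0.01 and -0.12, beside 0.00, -0.02 and 0.00 over all tested genes. With the V level as a covariate 6, 0 and 0 passed, where 12.4%, 7.87% and 1.92% of all tested genes did. The last comparison also depended on single libraries: 5 genes passed without Mpb-gata1-1 replicate 1, 7 without Mpb-gata1-1 replicate 3, and 6 without Mpb-gata1-2 replicate 1 or 3, while 7 passed in Mpb-gata1-2 minus BoGa without Mpb-gata1-2 replicate 1 or 2.

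The list for the supply of fatty acids held 16 genes, chosen by symbol alone, so the product of each is not established here. Of these, 7 rose and 4 fell in Mpb-gata1-1, against 23.0% of all tested genes in each direction. In Mpb-gata1-2 4 rose and 4 fell, against 21.7% higher and 24.7% lower. MpELO2 (Mp3g20100), a fatty acid elongase gene, had the largest difference of these and, like MpLOX16, was lower in both alleles. It stood at 23.8, 19.5 and 19.6 TPM in Mpb-gata1-1, 19.6, 17.2 and 18.5 TPM in Mpb-gata1-2, and 82.6, 74.0 and 41.5 TPM in BoGa. It fell by 1.75 in Mpb-gata1-1 and by 1.93 in Mpb-gata1-2 on the log2 scale (edgeR's adjusted p = 0.000126 and 6.68e-05), but in the model with the V level the difference in Mpb-gata1-2 was -0.59 (adjusted p = 0.388). In BoGa replicate 3, the library with the most MpLOX16 RNA, MpELO2 was lowest of the BoGa libraries.

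The desaturase genes with the highest TPM moved less. MpFAD10 (Mp4g24020) fell by 0.40 in Mpb-gata1-1 and by 0.47 in Mpb-gata1-2 (edgeR's adjusted p = 0.000824 for the first allele and 0.000305 for the second), and MpFAD11 (Mp5g20700) fell by 0.51 and 0.77 (adjusted p = 0.0049 and 0.000453 in edgeR). MpFAD3 (Mp2g24510) did not pass in any comparison (edgeR's adjusted p = 0.632, 0.832 and 0.829). MpFAD13 (Mp7g08840) rose by 0.52 in Mpb-gata1-1 (edgeR's adjusted p = 0.000119) and was lower in Mpb-gata1-2 than in Mpb-gata1-1 by 0.36 (log2 difference -0.36, adjusted p = 0.00159). MpDES6 (Mp6g17330), a desaturase gene of the route to arachidonic acid, rose by 0.75 in Mpb-gata1-1 (edgeR's adjusted p = 4.39e-05), but only 52.7% of its reads were unique, and a neighbouring gene overlaps it.

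Directly after the lipoxygenase step, the allene oxide synthase gene MpCYP74N1 (Mp3g21350, also called MpAOS1) was higher in Mpb-gata1-2. It stood at 56.9, 68.3 and 69.5 TPM in Mpb-gata1-1, 90.2, 87.3 and 96.4 TPM in Mpb-gata1-2, and 53.3, 50.5 and 67.1 TPM in BoGa. It rose by 0.59 in Mpb-gata1-2 against BoGa and by 0.50 against Mpb-gata1-1 (edgeR's adjusted p = 0.00165 and 0.00669). The V level as a covariate gave 0.030 (edgeR's adjusted p = 0.949) and -0.65 (0.506). Its paralog MpCYP74N2 (Mp5g16260, also called MpAOS2) passed in neither mutant against BoGa (edgeR's adjusted p = 0.263 in Mpb-gata1-1 and 0.154 in Mpb-gata1-2), but was lower in Mpb-gata1-2 than in Mpb-gata1-1 (-0.50, adjusted p = 0.0306). That last difference did not pass without Mpb-gata1-1 replicate 1 (adjusted p = 0.0932), Mpb-gata1-2 replicate 1 (0.104) or Mpb-gata1-2 replicate 3 (0.0623). MpLACS (Mp7g01380), an acyl-CoA synthetase gene, rose by 0.19 in Mpb-gata1-2 (edgeR's adjusted p = 0.0119).

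The receptor and repressor genes moved little. MpCOI1 (Mp2g26590), the receptor gene, differed by -0.18 in Mpb-gata1-1 and -0.13 in Mpb-gata1-2 (edgeR's adjusted p = 0.0257 and 0.0815). MpJAZ (Mp6g06230), the repressor that the receptor removes, differed by -0.10 in Mpb-gata1-1 and -0.22 in Mpb-gata1-2 (edgeR's adjusted p = 0.289 and 0.0333). MpTPL (Mp7g17410), a corepressor gene, differed by -0.23 in Mpb-gata1-1 and -0.01 in Mpb-gata1-2 (adjusted p = 0.0235 and 0.882 in edgeR), and MpNINJA (Mp1g04410), which links JAZ to corepressors, by 0.16 and 0.22 (adjusted p = 0.134 and 0.0504). The calls for MpCOI1, MpJAZ and MpTPL against BoGa did not hold with limma on log2(TPM + 1) (adjusted p = 0.368, 0.195 and 0.215). Genes of allene oxide cyclase, OPDA reductase and the MYC factors were not analysed here.

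**Figure D5:**
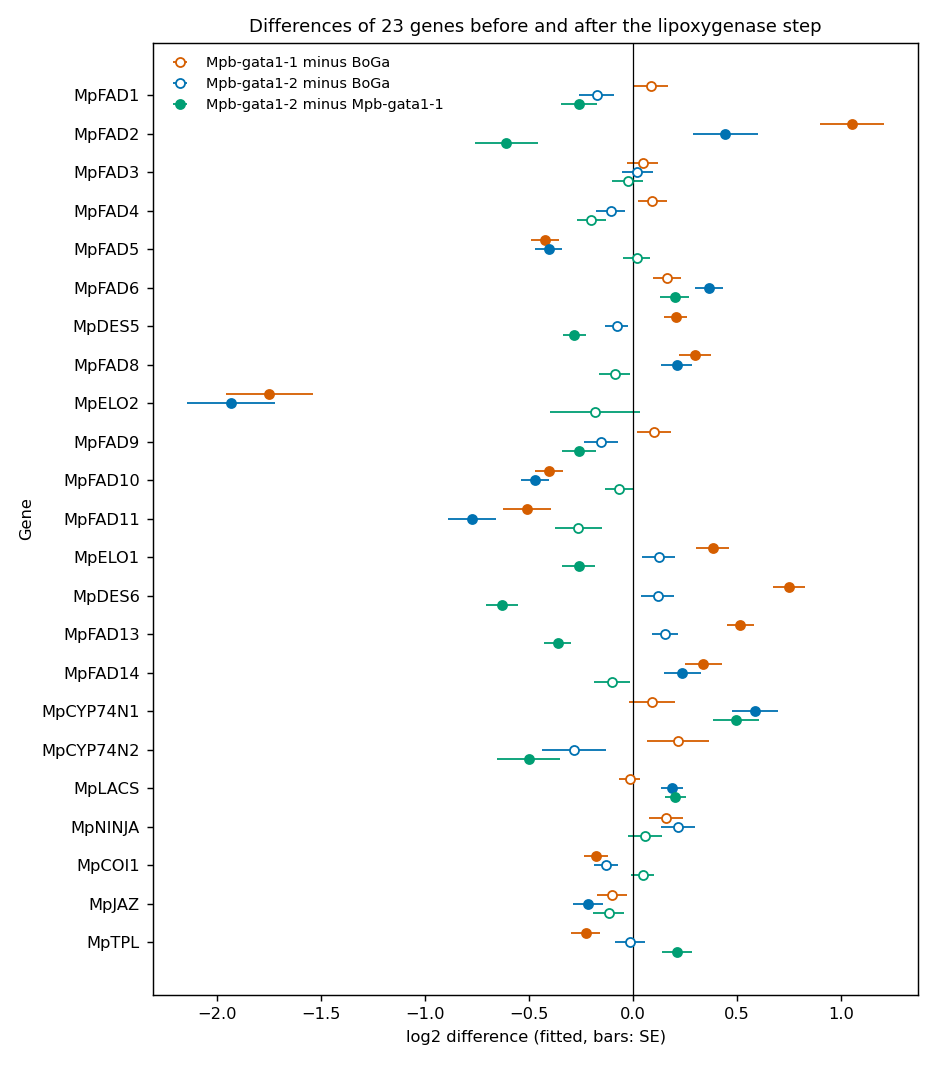
Fitted log2 differences with SE of the 23 pathway genes for Mpb-gata1-1 minus BoGa, Mpb-gata1-2 minus BoGa (blue) and Mpb-gata1-2 minus Mpb-gata1-1 (green), with filled circles for genes that passed edgeR's test and open circles for the others. MpELO2 is lower in both mutants (-1.75 and -1.93), and most of the other genes lie within 1 log2 unit of 0.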

How the data were processed

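The 9 libraries were prepared by a stranded protocol for mRNA, as the labels say. Per the file headers, the deposited tables give the count of total gene reads and of unique gene reads, not normalized, beside TPM and RPKM that the authors computed. No label or header names the aligner, the build, how shared reads were counted or whether strand was used: not given in the sources used here. Names were matched through locus numbers to a gene table of assembly MpTak2_v7.1, whose positions were not used; 17641 of 20574 IDs (85.7%) matched, and 81.4% of these had a length within 20 bp. Depth was 24823337 to 44133919 gene reads.

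The analysis of total gene reads used edgeR 4.0.16 under R 4.3.3, with filterByExpr by group, TMM scaling, and a robust quasi-likelihood fit over all 9 libraries with a term for each group, which gave a biological coefficient of variation of 9.08%. P-values were adjusted by Benjamini-Hochberg over 14667 genes, with a threshold of 0.05. The fit was run on simulated data in which far fewer genes changed than passed here, and by less than MpLOX4 differed in Mpb-gata1-1 from BoGa. That run therefore does not show the rate of false calls in these data. MpLOX4, MpLOX16 and all lists were chosen with earlier results of these data known. Named were the 8 other lipoxygenase genes with the highest TPM, the 3 with the smallest p in each comparison, up to 3 pathway genes a list by TPM and 2 by p in each comparison, 3 neighbours on each side, and the 5 named and 1 unnamed genes of the most similar pattern with a mean log2 CPM of at least 1; other names are marked as chosen later. Alternatives were DESeq2 1.42.0, scaling by RLE or upper quartile, a stricter filter or none, unique reads, only the groups compared, a replicate block, the V level as a covariate, limma 3.58.1 on log2 of TPM or RPKM plus a pseudocount of 1 or 0.1, and leaving out each library.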

Additional observations from a re-analysis of the deposited data

Results flagged for a closer look

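MpLOX14 (Mp8g12930) drew attention because the alleles moved to opposite sides of BoGa and the difference between them passed the test itself. The log2 difference, Mpb-gata1-2 minus Mpb-gata1-1, was 0.86 (edgeR's adjusted p = 7.9e-06), with all 3 Mpb-gata1-2 libraries above and all 3 Mpb-gata1-1 libraries below the BoGa libraries.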

How the results depend on the processing

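MpLOX4 and MpLOX16 kept their direction in all 3 comparisons under every alternative run. Their sizes shrank where a pseudocount was added. With limma on log2(TPM + 1), log2(TPM + 0.1) and log2(RPKM + 1), MpLOX4 differed by -4.42, -5.64 and -3.29 in Mpb-gata1-1 minus BoGa; with TPM + 1 and RPKM + 1 it differed by 3.06 and 2.01 in Mpb-gata1-2 minus Mpb-gata1-1. With the same 2 settings MpLOX16 differed by -1.97 and -1.54 in Mpb-gata1-1 minus BoGa, by -2.42 and -1.80 in Mpb-gata1-2 minus BoGa, and by -0.44 and -0.26 in Mpb-gata1-2 minus Mpb-gata1-1.

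With the V level as a covariate MpLOX16 differed by -1.20, -4.27 and -3.07 in the 3 comparisons and MpLOX4 by 3.98 ± 0.84 (SE) in Mpb-gata1-2 minus Mpb-gata1-1. Of the other lipoxygenase genes 2, 3 and 1 passed, and of the pathway genes 6, 0 and 0. Of values that passed in either model, directions turned in this one for MpLOX8 (5.13 in Mpb-gata1-1 minus BoGa and -12.95 in Mpb-gata1-2 minus Mpb-gata1-1), MpLOX10 (-1.64), MpFAD1 (0.46) and MpCYP74N1 (-0.65) in Mpb-gata1-2 minus Mpb-gata1-1, MpELO1 (-0.062 in Mpb-gata1-1 minus BoGa and 0.63 in Mpb-gata1-2 minus Mpb-gata1-1), MpFAD14 (-0.017 in Mpb-gata1-2 minus BoGa) and Mp5g21660 (0.31 in Mpb-gata1-1 minus BoGa). The cause was not tested.

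Leaving out each library gave, for Mpb-gata1-1 minus BoGa, -6.13 to -5.73 for MpLOX4, -2.59 to -2.14 for MpLOX16, 6 to 8 other lipoxygenase genes and 11 to 14 pathway genes. For Mpb-gata1-2 minus BoGa it gave -1.62 to -1.36, -3.26 to -2.82, 5 to 7 and 7 to 12, and for Mpb-gata1-2 minus Mpb-gata1-1 4.20 to 4.63, -0.75 to -0.53, 3 to 5 and 5 to 14. Over all alternatives, single lipoxygenase genes kept direction and side of the threshold in 699 of 813 cases and pathway genes in 1261 of 1449; in 22 and 36 further cases a value that passed in neither changed sign, 7 and 12 of these with the V level.

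Same-numbered libraries did not deviate together over the tested genes (r = -0.12 to 0.16 over 9 pairs), which does not exclude pairing. The numbers are those of the sample titles. In CPM, MpLOX16 rose from replicate 1 to replicate 3 in each group. With the replicate number as a block, MpLOX4 differed by -6.00, -1.54 and 4.46, MpLOX16 by -2.44, -3.10 and -0.66, 7, 5 and 4 other lipoxygenase genes passed, and 12, 9 and 8 pathway genes. The SE of MpLOX16 was then 0.14 in Mpb-gata1-1 minus BoGa and 0.15 in Mpb-gata1-2 minus BoGa, beside 0.22 and 0.23 without the block. Depth limits MpLOX6, MpLOX8 and MpLOX15, and MpLOX4 in Mpb-gata1-1.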
